A study of Bos taurus with 2 samples.

Results

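The genes described here are the glucocorticoid receptor *NR3C1*, the cortisol-activating enzyme *HSD11B1* and 8 genes known to be induced by glucocorticoids in muscle and other tissues (*FKBP5*, *TSC22D3*, *KLF9*, *KLF15*, *DDIT4*, *ZBTB16*, *SGK1* and *CEBPD*). Their probes were taken from the arrays by the RefSeq accession given with each probe, and all 10 genes were found, with 25 of the 43652 probes. The array measured the longissimus thoracis (LT) muscle, a muscle of the back, of fetuses of Japanese Black cattle at 8.5 months of gestation (day 260 ± 8.3). The low-nutrition (LN) pool held total RNA of 4 fetuses from cows fed 60% of the nutritional requirement throughout gestation and before it, and the high-nutrition (HN) pool that of 4 fetuses from cows fed 120%. The cows carried calves of a single sire from male-sorted semen, and 5 cows were assigned to the LN diet and 6 to the HN diet. The fetuses pooled were those with the lowest body weight in the LN group and those with the highest in the HN group, so that diet and selection by body weight cannot be told apart. Each pool was hybridized to 1 one-color array, so that the groups could be compared only by their values, without a test or a p-value.

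Cortisol crosses into the cell and binds the glucocorticoid receptor, which is held in the cytoplasm by heat shock protein 90 and its co-chaperones until the hormone arrives. The receptor then moves to the nucleus and switches on genes through glucocorticoid response elements. In skeletal muscle, these genes restrain growth signaling and favor the breakdown of protein and amino acids, and in the fetus cortisol increases before birth, when it promotes the maturation of organs. HSD11B1 regenerates active cortisol from cortisone inside the cell, whereas HSD11B2 inactivates it.

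The authors deposited background-corrected spot intensities, here called signals, and all log2 values below are these signals after quantile normalization unless the sentence says otherwise. A probe was counted as detected where the software marked its spot as well above background. Of the 25 member probes, 23 were detected on both arrays and 2 on neither, so that no member value rests on a limit set for a dim signal. The SD of the log2 LN/HN of a single spot was 0.085 over 42 probes printed in several spots, which corresponds to a difference of 0.17 at 95%. The software's own error estimate for the log2 LN/HN of the 23 detected member probes was larger, from 0.20 for bright spots to 0.40 for the dimmest. It is on the scale of an SD, so it compares with 0.085 and not with 0.17. Taken at 95%, it would be wider than the 1.25-fold difference (0.32) used as a threshold below. The SD from repeated spots covers only the spread between spots of the same 2 arrays. A difference shared by all spots of an array does not enter it. Neither error covers the variation between fetuses, which a single pool per group cannot show.

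The expression of 2 of the 10 genes was more than 1.25-fold higher in the LN pool (*FKBP5* and *KLF15*), against 8.85% of the 19554 genes with a value (10637 known by symbol and the rest by the array's own identifier). That of 1 gene, *DDIT4*, was more than 1.25-fold lower, against 9.11% of all genes. *FKBP5* alone was more than 2-fold higher, against 0.711% of all genes, and no member was more than 2-fold lower, against 0.286%. In either direction, 3 members were past 1.25-fold, as were 18% of all genes. Probe by probe, 5 of the 23 detected member probes were past 1.25-fold higher (9.11% of 31986 probes with a value), 2 were past 1.25-fold lower (9.44%) and 3, all of *FKBP5*, were past 2-fold higher (0.753%). For 6 of the 10 genes the pools differed by less than 0.17 on the log2 scale, as they did for 57.7% of all genes. The median log2 LN/HN of the 10 genes was 0.005, and that of all genes was -0.003. The members thus differed from each other in the size and in the direction of their difference, and their median was close to that of the array. The balance of all genes moved with the scaling of the arrays, because 49.3% of the genes past 1.25-fold were higher in LN after quantile normalization, 39.3% without normalization and 30.7% after subtraction of the 75th percentile, whereas the counts of 2 higher and 1 lower member were the same under these scalings.

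**Figure D1:**
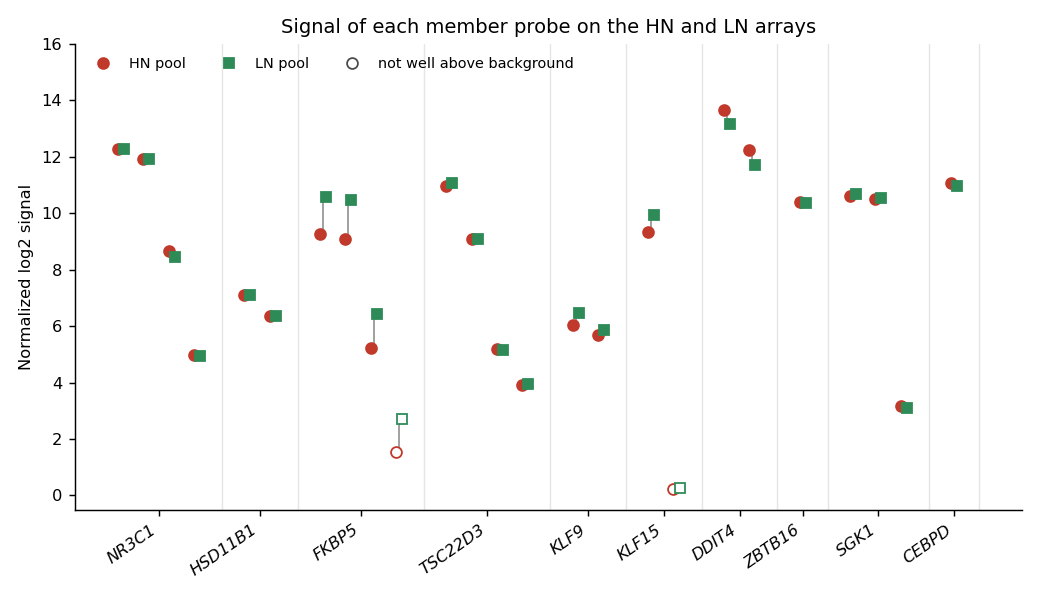
Normalized log2 signal (y axis) of each of the 25 probes of the 10 genes (x axis, grouped by gene) on the HN array (circles) and the LN array (squares), with open symbols for the 2 probes not well above background. The squares lie above the circles for *FKBP5* and the detected probe of *KLF15*, below them for both probes of *DDIT4*, and nearly on them for most others.

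The glucocorticoid receptor *NR3C1* (NM_001206634) had 4 probes. Their signals were 4933 in HN and 5051 in LN for the first, 3867 and 3989 for the second, 400 and 355 for the third, and 31.8 and 30.5 for the last. The log2 LN/HN was 0.00 for the first, second and last probe and -0.20 for the third, within its software error of 0.20. The mean log2 LN/HN of the receptor was -0.05 ± 0.10 (SD over 4 probes), and no difference was detectable with these arrays. For the mineralocorticoid receptor *NR3C2*, which also binds cortisol, 1 probe gave a log2 LN/HN of -0.15.

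The 2 probes of *HSD11B1* (NM_001123032) had signals of 137 in HN and 139 in LN, and of 83.3 and 82.7. Their log2 LN/HN was 0.01 and 0.00, so the transcript of the cortisol-activating enzyme was at the same level in both pools within the error of a spot. *HSD11B2*, which inactivates cortisol, had signals of 34.6 and 29.2 in its detected probe, a log2 LN/HN of -0.19. Its other probe was not well above background on either array, and where that probe was counted as positive and significant the gene value was 0.22, so no direction can be given. *SRD5A1*, a steroid 5-alpha-reductase, was nearly equal (log2 LN/HN -0.03, 1 detected probe). Without a filter on dim probes, where its undetected probe entered the mean, the value was -0.26. No probe was matched to *H6PD*, which supplies the cofactor of HSD11B1, to *SERPINA6*, the cortisol-binding globulin, or to *ABCB1*, an efflux pump.

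*FKBP5* (NM_001192862) encodes a co-chaperone of the receptor complex that lowers its affinity for cortisol, and is itself among the genes most readily induced by the receptor. Of its 4 probes, the first had a signal of 605 in HN and 1543 in LN, the second of 538 and 1436, and the third of 38.5 and 84.8. All 3 were higher in the LN pool. Their log2 LN/HN was 1.30, 1.35 and 1.17, each with a software error between 0.20 and 0.21, and the gene value was 1.28 ± 0.09 (SD over 3 probes), a 2.42-fold difference. The last probe had a signal of 3.34 in HN and 6.05 in LN and was not well above background on either array, so it was left out. By gene value, *FKBP5* was at rank 55 from the highest among the 19554 genes, and its probes were at ranks 67, 80 and 130 of 31986 probes with a value.

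The probes of *FKBP5* were compared with those of other genes, a comparison chosen after its values were seen. Its SD of 0.09 between probes was near the median of 0.10 over the 7139 genes with 2 probes or more detected on both arrays. Among the 2987 genes for which both arrays gave a value in 3 probes or more, every probe was more than 2-fold higher in the LN pool in 3 genes (0.10%). These were *FKBP5*, *CEBPG* with 3 probes (lowest log2 LN/HN 1.00) and *COL8A1* with 4 probes (lowest 1.12). Because this count requires a large difference in each probe, it largely restates the high rank of *FKBP5*. The spots around the 3 *FKBP5* spots, within 4 rows and 4 columns, had a median log2 LN/HN of 0.00, 0.06 and 0.01, so that the difference was not shared with the surrounding part of the array. In the log2 values normalized by the authors, the 3 probes had a log2 LN/HN of 1.23, 1.29 and 1.15. Over 11 alternative settings the gene value ranged from 0.997, after the normexp background correction, to 1.30, without normalization. The former is just less than 2-fold.

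**Figure D2:**
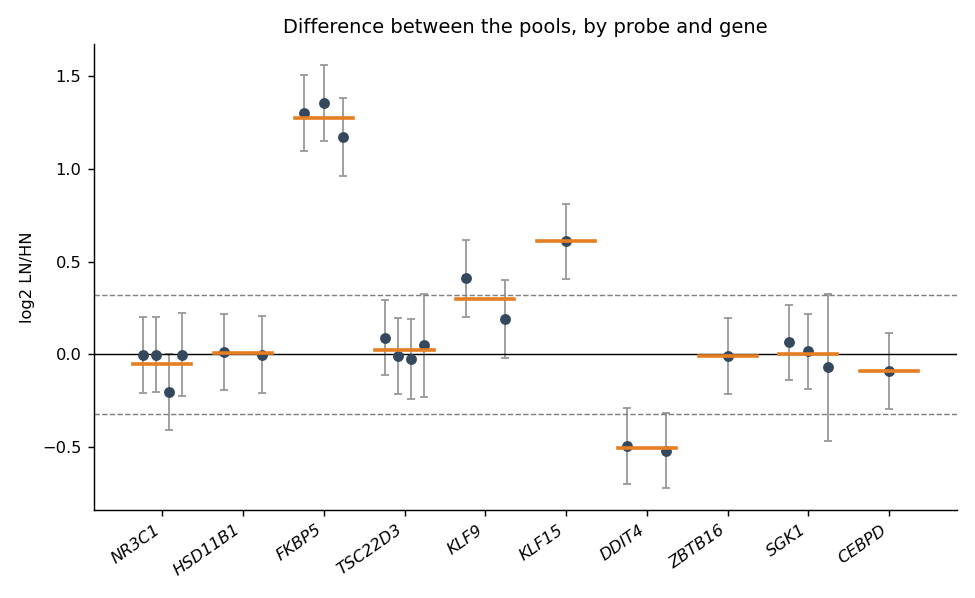
log2 LN/HN (y axis) of each detected probe (points, with the software's error estimate as bars) and the mean of each gene (horizontal lines) for the 10 genes (x axis), with dashed lines at 1.25-fold in both directions. The 3 probes of *FKBP5* lie between 1.17 and 1.35, the probe of *KLF15* at 0.61, and both probes of *DDIT4* near -0.5, outside the dashed lines.

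*KLF15* (NM_001082425) encodes a zinc-finger transcription factor that is induced by glucocorticoids and promotes the breakdown of branched-chain amino acids in muscle. Its detected probe had a signal of 641 in HN and 1010 in LN, a log2 LN/HN of 0.61 with a software error of 0.20, or a 1.52-fold difference. The gene was at rank 568 from the highest. Its other probe was at the background on both arrays (signals 1.06 and 1.34), so the value of *KLF15* rests on 1 probe. With that probe included, the mean was 0.31, below the 1.25-fold threshold.

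*KLF9* (NM_001193214), a relative of *KLF15* that is also induced directly by the receptor, had 2 probes. The signals were 66.4 in HN and 87.7 in LN for one, and 51.4 and 57.7 for the other. Both were higher in the LN pool, with a log2 LN/HN of 0.41 and 0.19, and the gene value was 0.30 ± 0.16 (SD over 2 probes). This was just short of the threshold of 0.32, and it passed the threshold after cyclic loess (0.33) and with the brighter probe alone (0.41). It was 0.14 after the normexp background correction, which compresses the differences of dim probes.

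*DDIT4* (NM_001075922) encodes REDD1, an inhibitor of the growth kinase complex mTORC1 that is induced by glucocorticoids and also by low oxygen and energy stress. Its signals were 12777 in HN and 9253 in LN for one probe, and 4782 and 3419 for the other. Both were lower in the LN pool, in the opposite direction to *FKBP5* and *KLF15*. The log2 LN/HN was -0.49 and -0.52, each with a software error of 0.20, and the gene value was -0.51 ± 0.02 (SD over 2 probes), 1.42-fold lower in the LN pool. It was at rank 669 from the lowest. Over the 11 alternative settings the value stayed between -0.52 and -0.47. Of 7139 genes for which both arrays gave a value in 2 probes or more, 172 (2.41%) were more than 1.25-fold lower in the LN pool in every probe, and of the 7 members so measured these included *DDIT4* alone. In the other direction, 151 (2.12%) were higher in every probe, with *FKBP5* the only member. This comparison was not planned and restates the probe values above.

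**Figure D3:**
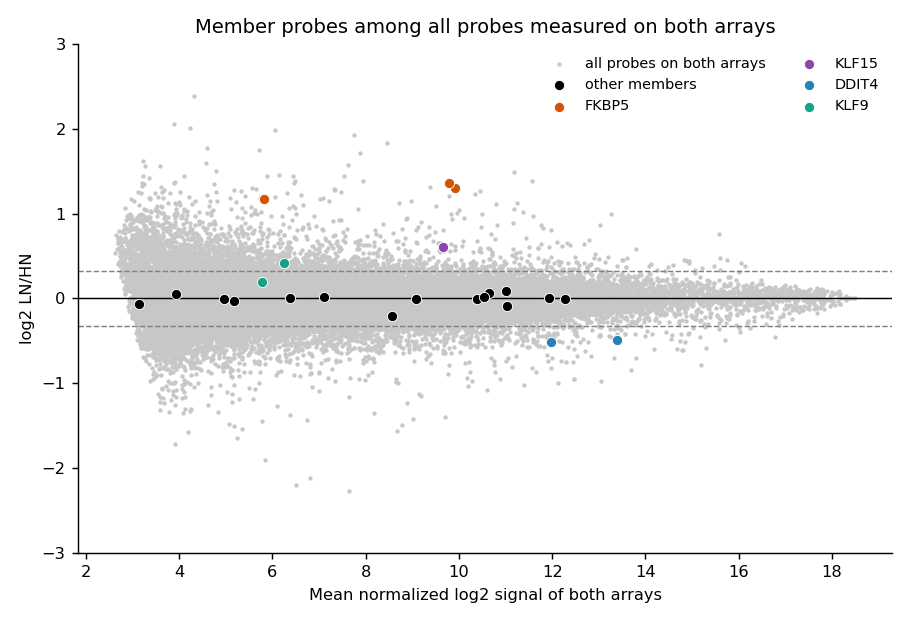
log2 LN/HN (y axis) against the mean normalized log2 signal of both arrays (x axis) for the 30639 probes measured on both arrays (grey) and the 23 detected member probes (colored by gene, the 6 other genes in black), with dashed lines at 1.25-fold. The *FKBP5* points lie at the upper edge of the grey cloud and the *DDIT4* points at its lower edge among bright probes.

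The remaining targets were nearly equal in the pools. *TSC22D3* (NM_001103342) encodes GILZ, a leucine zipper protein that carries part of the anti-inflammatory action of glucocorticoids. Its 4 probes had signals of 1978 in HN and 2173 in LN, 532 and 550, 37.0 and 35.1, and 15.5 and 14.9. The log2 LN/HN of the probes lay between -0.03 and 0.09, and the gene value was 0.03 ± 0.05 (SD over 4 probes).

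*SGK1* (NM_001102033), a kinase that regulates ion channels and is induced by glucocorticoids and mineralocorticoids, had signals of 1531 in HN and 1654 in LN, 1449 and 1514, and 9.47 and 8.14. Its gene value was 0.00 ± 0.07 (SD over 3 probes). The dimmest of these probes had a log2 LN/HN of -0.07 here and of -0.36 in the values normalized by the authors, in which it was the only member probe to pass the 1.25-fold threshold that had not passed it here.

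*ZBTB16* (NM_001037476), a transcriptional repressor, had 1 probe with signals of 1314 in HN and 1360 in LN (log2 LN/HN -0.01). *CEBPD* (NM_174267), a transcription factor of the C/EBP family, had 1 probe with signals of 2111 and 2049 (log2 LN/HN -0.09). Thus 5 of the 8 targets were within 1.25-fold, where all genes but 18% also lay. Of these, 4 (*TSC22D3*, *SGK1*, *ZBTB16* and *CEBPD*) were within the error of a spot, as were 57.7% of all genes.

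**Figure D4:**
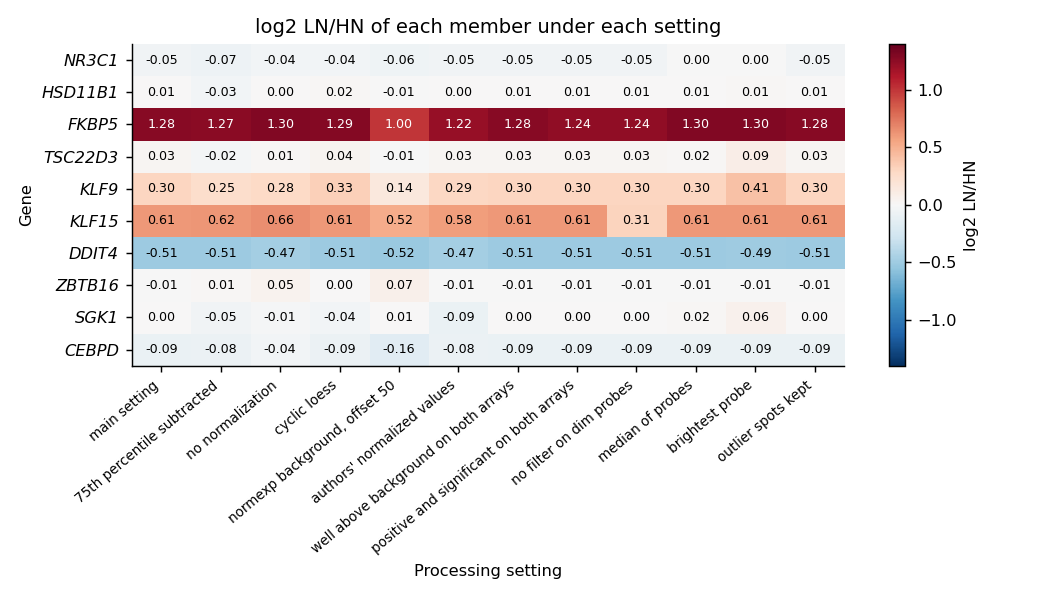
log2 LN/HN (color and number) of the 10 genes (rows) under the main setting and 11 alternatives (columns). *FKBP5* stayed between 0.997 and 1.30 and *DDIT4* between -0.52 and -0.47, whereas *KLF15* ranged from 0.31 to 0.66 and *KLF9* from 0.14 to 0.41.

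The other genes of the pathway were taken from lists written by hand. Of 19 genes of the receptor complex and its cofactors, 14 had a value, and none of these was past 1.25-fold in either direction, against 18% of all genes. The median of these 14 log2 ratios was 0.05. The values ranged from -0.15 for *NR3C2* to 0.18 for *STIP1*, the co-chaperone that links HSP70 to HSP90, over 6 probes. *HSP90AA1* (0.10) and *HSP90AB1* (0.03), the cytosolic HSP90 proteins that hold the receptor, and *FKBP4* (0.10), the relative of *FKBP5* that aids its transport to the nucleus, were within the error of a spot.

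Of 33 other genes known to be induced by glucocorticoids, 28 had a value, with 4 past 1.25-fold higher (14.3%, against 8.85% of all genes), 2 past 1.25-fold lower (7.14%, against 9.11%) and a median log2 LN/HN of -0.03. Without normalization, and also after subtraction of the 75th percentile, 3 were higher and 3 lower. *CDKN1A*, which encodes the cell cycle inhibitor p21, had a log2 LN/HN of 0.66, but its 2 probes differed (1.02 and 0.30). The metallothionein genes *MT2A* (0.36, with probes at 0.31 and 0.41) and *MT1A* (0.35) were higher in the LN pool. These genes belong to a family of near-identical copies, and their probes may share transcripts. *MAOA*, a monoamine oxidase, had a gene value of 0.33 from probes at 0.05 and 0.61. It was past 1.25-fold in 7 of the 11 alternatives, and fell short after subtraction of the 75th percentile (0.26), without normalization (0.30), after the normexp background correction (0.05) and with the brightest probe (0.05). *MT1A* fell short after the normexp background correction (0.29) and *MT2A* with the brightest probe (0.31).

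The lower targets were *ANGPTL4* and *PDK4*. *ANGPTL4*, an inhibitor of lipoprotein lipase, had a signal of 193 in HN and 41.6 in LN (log2 LN/HN -2.20, rank 3 from the lowest). *PDK4*, which restrains the entry of pyruvate into the citric acid cycle, was lower in all of its 8 probes (log2 LN/HN -1.28 ± 0.22, SD over 8 probes, rank 16 from the lowest). After the normexp background correction the values were -1.24 for *ANGPTL4* and -0.84 for *PDK4*, the latter less than 2-fold. Both genes are also controlled by fatty acids. The ubiquitin ligases of muscle wasting, *TRIM63* (-0.08) and *FBXO32* (-0.20), the phosphatase gene *DUSP1* (-0.01) and the NF-kB inhibitor gene *NFKBIA* (-0.17) were within 1.25-fold. *TAT*, a liver enzyme of tyrosine breakdown, was not well above background, and no probe was matched to *PER1*, *FOXO1*, *IRS2* or *RGS2*.

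**Figure D5:**
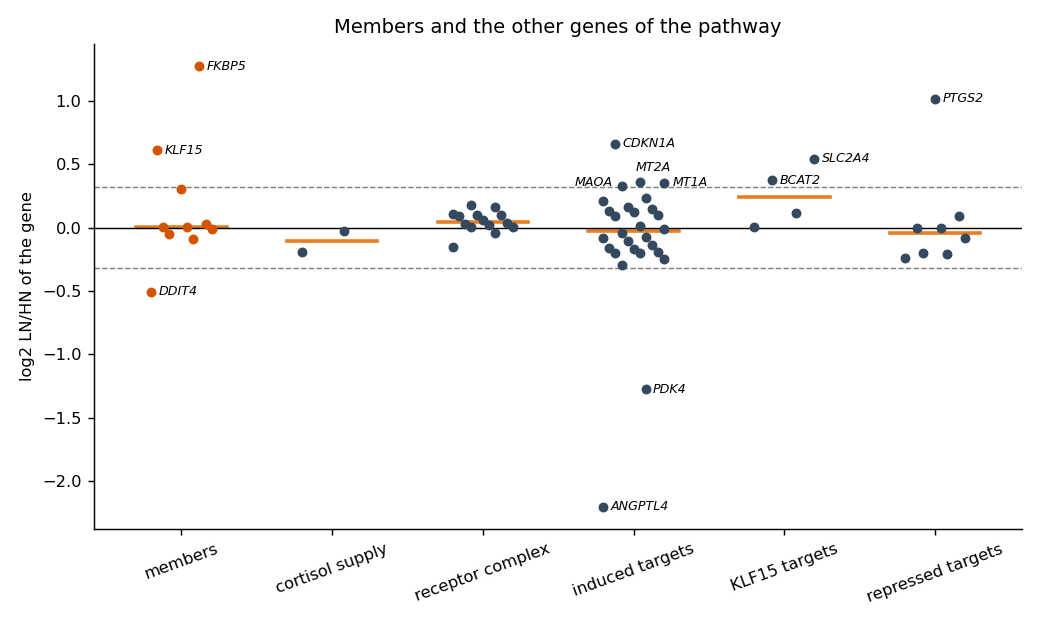
log2 LN/HN (y axis) of each gene with a value among the 10 members and 5 lists of other genes of the pathway (x axis), with the median of each list (horizontal lines), dashed lines at 1.25-fold, and names for the genes past them. The receptor complex stays between the dashed lines, and the induced targets include genes on both sides of them.

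Of the 4 genes listed as controlled by KLF15, 2 were past 1.25-fold higher, against 8.85% of all genes, and none was lower, with a median log2 LN/HN of 0.24. *SLC2A4*, the insulin-responsive glucose transporter GLUT4, had signals of 6881 in HN and 9681 in LN, 5572 and 7648, 109 and 126, and 17.8 and 35.8. All 4 of its probes were higher in the LN pool (0.21 to 1.09, the highest in the dimmest probe), with a gene value of 0.54. It was 0.44 with the median of probes and 0.33 after the normexp background correction, close to the threshold of 0.32. The study cites lower expression of GLUT4 from earlier work, which is the opposite direction. *BCAT2*, the mitochondrial branched-chain aminotransferase, was higher in its detected probe (signals 326 in HN and 431 in LN, log2 LN/HN 0.37). With its other probe, not well above background on either array, the value was 0.89. *GPT*, an alanine aminotransferase, had a value of 0.12 over 2 probes, and *PRODH*, which breaks down proline, had a value of 0.01 that was -0.01 after subtraction of the 75th percentile.

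Among 10 inflammatory genes that glucocorticoids repress, 8 had a value, and their median log2 LN/HN was -0.04. None was past 1.25-fold lower, against 9.11% of all genes, and 1 was past 1.25-fold higher, against 8.85%. This was *PTGS2*, the inducible cyclooxygenase (log2 LN/HN 1.02, signals 30.3 in HN and 59.9 in LN), whose value came from 1 of its 3 probes, the others being dim on both arrays. It was 0.37 after the normexp background correction. *IL1B* (-0.21), *CCL2* (-0.08) and *VCAM1* (0.09) were within 1.25-fold, and *IL6* and *TNF* were not well above background.

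The tissue was checked against marker genes. All 11 skeletal muscle genes were detected on both arrays, with a median log2 LN/HN of -0.12 and with *MYH8*, a perinatal myosin, past 1.25-fold higher (0.35). The 3 probes of *MYH8* disagreed (0.61, 0.39 and 0.04), and the brightest of them was nearly equal in the pools. The counts for genes of other cell types are given without a test, and they stand against 8.85% of all genes past 1.25-fold higher and 9.11% past 1.25-fold lower. All 3 neutrophil genes with a probe were higher in the LN pool (*S100A8* 1.39, *S100A9* 1.25 and *S100A12* 0.61), and their summed signal, most of it from *S100A12*, was 1263 in HN and 2189 in LN. All 4 fibroblast genes were above 0, with 2 past 1.25-fold higher (*COL1A1* 0.34 and *LUM* 0.35) and a summed signal of 131977 and 155416, most of it from the genes within 1.25-fold. Of 5 endothelial genes, 4 were below 0, with *CLDN5* past 1.25-fold lower (-0.39) and a summed signal of 32296 and 25257, most of it from the probes of *CLDN5*. Of 5 adipocyte genes, 3 had a value, of which *FABP4* was past 1.25-fold higher (0.39) and *CIDEC* (0.22) and *PLIN1* (-0.14) were within 1.25-fold on either side of 0, whereas *LEP* was not well above background and no probe was matched to *ADIPOQ*. The 4 macrophage genes had a median of -0.06, with *CD68* past 1.25-fold lower (-0.35). The 3 lymphocyte genes with a value had a median of 0.01, with *CD2* past 1.25-fold lower (-0.44), *CD3E* at 0.05 from probes in opposite directions (-0.40 and 0.50) and *CD79A* at 0.01, and *MS4A1* was not well above background. None of the 3 detected erythroid genes was past 1.25-fold. The part of these cell types in the values of *FKBP5*, *KLF15* and *DDIT4* was not tested. In pooled tissue RNA, fewer cells of a type and less RNA per cell cannot be told apart.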

How the data were processed

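Total RNA of 4 fetuses per group was pooled by the authors and hybridized to a Bovine (v2) 4x44K array, 1 per group. The intensities that the authors deposited were extracted with Agilent Feature Extraction 11.0.1.1 (per the labels) and are background-subtracted and detrended, but not normalized between the arrays. A table of values that the authors normalized by the quantile method was deposited for 30027 probes, and it is on the log2 scale as judged from its values. Here, the log2 intensities of 43803 spots were normalized by the quantile method (limma 3.58.1, R 4.3.3), 13 spots with an outlier flag were removed, and spots of a probe were averaged (Python 3.11.15, pandas 2.3.3, numpy 2.4.6; figures with matplotlib 3.10.9). A probe that only 1 array measured well above background received, for the other array, the smallest signal marked as such there (log2 2.27 for HN, 2.82 for LN), unless its own was higher. The gene value is the mean over detected probes.

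The well-above-background flag covered 74.5% of spots on HN and 70.9% on LN, and no spot was saturated. The number of arrays limits the precision. Accessions were matched to symbols through the ARS-UCD2.0 gene table (26742 probes, 12603 symbols). Since the array was designed on an older assembly, coordinates were left out, and an unmatched gene may be present under another identifier. The 1.25-fold threshold follows the study. The members and lists were chosen with earlier results of these data known. Named were all members, every gene of the cortisol supply and KLF15 lists and the genes past 1.25-fold of the others, while further list genes were named for their function or as the ends of a range after their values were seen. The steps were tested on simulated data. Alternatives were 3 scalings, the normexp background correction (offset 50, on median signals, as the files hold no mean signal), the authors' normalized values, 3 filters on dim probes, 2 summaries of probes and outlier spots kept.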

Additional observations from a re-analysis of the deposited data

How the results depend on the processing

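Under all 11 alternatives, 8 of the 10 members kept their side of the 1.25-fold threshold, the exceptions being *KLF9* and *KLF15*. The count of members higher in the LN pool was 1 without a filter on dim probes, because the undetected probe of *KLF15* then entered its mean, and 3 after cyclic loess or with the brightest probe, where *KLF9* passed. Of the induced targets, 2 were past 1.25-fold higher after the normexp background correction and 2 with the brightest probe, against 4 in the main setting. Among the members and the named pathway genes compared across the settings, no value past the threshold changed direction. The marker genes of tissue and cell types were not compared in this way. The number of all genes past 1.25-fold was 319 higher and 386 lower after the normexp background correction, 2705 and 2623 with all probes marked positive and significant kept, and 3251 and 3592 without a filter, against 1731 and 1781. No paired analysis was possible because each group has 1 array. Values of dim probes depend on the background correction, and differences below about 0.17 on the log2 scale are within the error of a spot, as judged from repeated spots. The software's estimate for the member probes, on the scale of an SD, was larger, at 0.20 or more.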
